A study of Mus musculus with 54 samples.

Results

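The 10 genes described here, of cyclic nucleotide and PACAP signaling, were measured across the 4 groups of follicle sides. They were taken by symbol from tables of 25149 genes, and all 10 were found: the peptide ligands Adcyap1 and Nppc, their receptors Adcyap1r1 and Npr2, the G protein regulator Rgs2, the phosphodiesterases Pde4b, Pde4d, Pde7b and Pde10a, and the protein kinase A subunit Prkar2b. Mouse follicles from CD-1 females aged 14 to 16 days were grown in alginate until day 8 of culture and then kept for 12 h in a medium that held EGF at 10 ng/ml, FBS at 10% and rFSH (recombinant FSH) at 10 mIU/ml. All groups shared this medium. Only the post-hCG groups also received hCG (human chorionic gonadotropin, which acts on the luteinizing hormone (LH) receptor), at 1.5 IU/ml. Without hCG no follicle had ruptured, so its sides were named putative: 15 libraries are of putative unruptured and 14 of putative ruptured sides, cut apart where the swollen antral cavity and an image model placed the future rupture. Post-hCG there are 12 libraries of unruptured and 13 of ruptured sides. Much of the theca layer is lost when follicles are isolated and regrows in culture, per the study. Each library was made from 1 follicle side with Smart-Seq2, a full-length cDNA method for small amounts of RNA. The labels do not tie sides to follicles or mice, so p-values measure the spread between sides.

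Cyclic AMP and cyclic GMP both act in the preovulatory follicle. LH raises cyclic AMP (cAMP) in granulosa cells through the stimulatory G protein and adenylyl cyclase, and cAMP acts through protein kinase A (PKA), while C-type natriuretic peptide made by granulosa cells raises cyclic GMP (cGMP) through the guanylyl cyclase receptor NPR2, and cGMP that reaches the oocyte holds it in meiotic arrest. Phosphodiesterases break both messengers down, RGS proteins end G protein signaling, and PACAP, a peptide induced by the LH surge, signals to neighboring cells through receptors that also raise cAMP.

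Total counts ran from 1497138 to 2834794 per library, with a median of 2157135. By its label the tissue is the cumulus-oocyte complex, but the study's methods state that these complexes were removed. The summed level of 8 oocyte markers had a median of at most 0.2 TPM (a level scaled to transcript length and library) in every group. It reached 133 TPM in 1 putative unruptured library. Oocyte markers do not cover cumulus cells, whose markers are given with the other cell types below. Amh, a granulosa marker of growing follicles, had a median of 0 TPM in every group, whereas Inha, the inhibin alpha subunit of granulosa cells, had group medians from 1050 to 9030 TPM. A difference was called at an edgeR false discovery rate (FDR) below 0.05. Where the libraries of groups are said not to overlap, the share of all genes that separate in this way is not given. Such statements therefore describe the gene only. Fold changes are log2 values of scaled counts (log2FC), and a positive value means higher on the ruptured side or post-hCG. The scaling of libraries bears on direction counts over all genes. With scaling by library totals alone, the share of called genes that were higher went from 49.7% to 39.3% (sides without hCG), from 47.0% to 17.8% (sides post-hCG), from 47.8% to 27.5% (hCG, unruptured), from 49.4% to 24.5% (hCG, ruptured) and from 47.8% to 25.8% (interaction, the difference between the hCG responses of the sides). With limma on TPM it was 43.3%, 8.99%, 57.6%, 34.3% and 11.1% in the same order, so it was lower than with edgeR in 4 comparisons and higher for hCG in unruptured sides. The median log2FC of all genes, between -0.03 and 0.01 with the TMM scaling used here, lay between -0.33 and -0.06 with library totals and between -0.21 and 0.04 with limma. The library names end in a letter and a number in the form of well positions, although the labels do not say that they are. The letter is called a well row here. Rows B to D held the post-hCG libraries and rows F to H the others, so row and medium cannot be told apart. Both sides met only in row G without hCG (5 and 5 libraries) and in row C post-hCG (4 and 5 libraries). In row G 3 of 9068 genes were called between the sides, and in row C 748 of 9004.

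Adcyap1 encodes PACAP (pituitary adenylate cyclase-activating polypeptide) and lies at chr17:93199017-93206537 on the plus strand of GRCm38. Without hCG it was close to absent. It ranged from 0 to 0.42 TPM (median 0.12, n = 15) in putative unruptured sides, against 0 to 0.55 TPM (median 0.165, n = 14) in putative ruptured ones, with at most 3 counts in any library. Post-hCG it ranged from 23.3 to 62.8 TPM (median 30.8, n = 12) in unruptured sides, against 7.63 to 51.6 TPM (median 14.0, n = 13) in ruptured ones. Every post-hCG library was above every library without hCG. Summed over libraries, 15 and 12 counts without hCG on the unruptured and ruptured sides stood against 2568 and 1691 post-hCG. The log2FC was 7.89 ± 0.28 (SE, edgeR FDR = 1.61e-20) on the unruptured side and 7.01 ± 0.40 (SE, edgeR FDR = 3.61e-16) on the ruptured side.

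Post-hCG, Adcyap1 was lower on the ruptured side, with a log2FC of -0.67 ± 0.24 (SE, edgeR FDR = 0.0458). Of 13 ruptured libraries, 10 were below the lowest unruptured library and 3 lay within the range of the unruptured side. DESeq2 gave -0.67 with an adjusted p of 0.0757 and did not call it, whereas the other alternatives run on both groups did, with FDRs from 0.0012 (limma, -1.03) to 0.0468 (no filter, -0.66). The lowest FDRs came from limma and from library totals (edgeR FDR = 0.00968). In those fits the median log2FC of all genes was itself negative, at -0.21 and -0.14. Within well row C the log2FC of Adcyap1 was -1.06 ± 0.27 (SE, edgeR FDR = 0.0222). The difference between the hCG responses of the sides did not pass the interaction test (log2FC -0.85 ± 0.85 SE, edgeR FDR = 0.614). On the log2(TPM + 1) scale limma called that difference, at -1.04 ± 0.24 (SE, limma FDR = 0.00314). Without hCG, Adcyap1 was at the floor of this scale, with means of 0.18 (putative unruptured) and 0.19 (putative ruptured). The limma value therefore restates the post-hCG side difference of -1.03 and is not separate evidence that the hCG responses differ. The median log2FC of all genes in that limma fit was -0.19.

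The promoter of Adcyap1 is shown because this gene had the highest fold change of the 10 members and because CREB, the transcription factor that PKA activates, binds the cAMP response element (CRE). Promoter windows of 250 bases before the start were read from RefSeq on GRCm38.p6 for all 10 members, 16 windows in all. The search covered both strands for the full CRE TGACGTCA, its half-site TGACG, which is part of the full element, the NR5A site CAAGGTCA and the AP-1 site TGANTCA. The half-site was found in 4 windows of 3 members (Adcyap1, Rgs2 and Pde4b) and in 17.8% of the 32851 windows of all genes. The full CRE, present in 1.55% of all windows, the NR5A site, in 1.33%, and the AP-1 site, in 6.75%, were in 0 of the 16 member windows, which says only that these letters are not in these windows. In the Adcyap1 window, chr17:93198767-93199016 on the plus strand, the half-site in capitals begins 91 bases before the start. Its second annotated window overlaps this one and holds the same half-site.
Adcyap1: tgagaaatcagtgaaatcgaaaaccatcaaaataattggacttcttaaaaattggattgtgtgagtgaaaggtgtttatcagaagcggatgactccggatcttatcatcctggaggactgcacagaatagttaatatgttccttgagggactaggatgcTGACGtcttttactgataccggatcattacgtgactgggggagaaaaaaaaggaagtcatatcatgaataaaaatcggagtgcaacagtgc

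The PACAP receptor gene Adcyap1r1 (chr6:55451978-55501451, plus strand) was at the edge of detection. Without hCG it ranged from 0 to 1.48 TPM (median 0.24, n = 15) in putative unruptured sides, against 0 to 0.58 TPM (median 0, n = 14) in putative ruptured ones. Post-hCG the level was 0.11 to 1.34 TPM (median 0.50, n = 12) and 0 to 0.70 TPM (median 0.27, n = 13), in the same order of sides. The ranges of all groups overlapped. The gene did not pass the count filter in any comparison, and with no filter its hCG response was 0.95 ± 0.42 (SE, edgeR FDR = 0.0887) on the unruptured side and 0.92 ± 0.58 (SE, edgeR FDR = 0.236) on the ruptured side. The VIP receptors, which also bind PACAP, were no more abundant: over all libraries of a group Vipr1 had 3 to 6 counts and Vipr2 5 to 25. Vip had 0 counts in all 54 libraries.

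Nppc (chr1:86666291-86670571, minus strand) encodes C-type natriuretic peptide. Its level without hCG was 0 to 7.83 TPM (median 2.08, n = 15) in putative unruptured sides, against 1.69 to 26.9 TPM (median 10.5, n = 14) in putative ruptured ones. Of 14 putative ruptured libraries, 8 were above the highest putative unruptured library, and the ranges overlapped. The log2FC was 2.20 ± 0.38 (SE, edgeR FDR = 0.000114), and within well row G the gene was under the count filter. Post-hCG, Nppc ranged from 0 to 1.31 TPM (median 0.375, n = 12) on the unruptured side, and it was at 0 in 10 of 13 ruptured libraries, with 5 counts in all and a highest level of 0.79 TPM. On the ruptured side every library post-hCG was below every library without hCG. Nppc did not pass the count filter for the effect of hCG on either side. With no filter its log2FC was -2.35 ± 0.51 (SE, edgeR FDR = 0.000382) on the unruptured side and -5.69 ± 0.55 (SE, edgeR FDR = 2.63e-11) on the ruptured side.

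Npr2 (chr4:43631935-43651244, plus strand) encodes the receptor for that peptide, a guanylyl cyclase that makes cGMP. In medium without hCG it spanned 1.95 to 7.55 TPM (median 3.46, n = 15) in putative unruptured sides, against 4.07 to 16.2 TPM (median 10.9, n = 14) in putative ruptured ones. After hCG it spanned 0.53 to 4.76 TPM (median 1.58, n = 12) in unruptured sides, against 0.44 to 3.71 TPM (median 1.69, n = 13) in ruptured ones. All 14 putative ruptured libraries were above the median of the putative unruptured side in TPM, and 11 were when counts were scaled to library size. On the ruptured side the TPM ranges with and without hCG did not overlap. With counts scaled to library size these ranges overlapped, and 12 of 13 post-hCG libraries were below every library without hCG. The log2FC was 1.03 ± 0.23 (SE, edgeR FDR = 0.00184) between the sides without hCG, and 0.40 ± 0.39 (SE, edgeR FDR = 0.786) within well row G. With hCG it fell by 1.68 ± 0.25 (SE, edgeR FDR = 8.33e-07) on the unruptured side and by 2.22 ± 0.26 (SE, edgeR FDR = 4.92e-09) on the ruptured side. Post-hCG the sides were not separated, and the direction changed with the scale: 0.48 ± 0.25 (SE, edgeR FDR = 0.173) in counts and -0.10 ± 0.22 (SE, limma FDR = 0.773) on log2(TPM + 1).

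**Figure D1:**
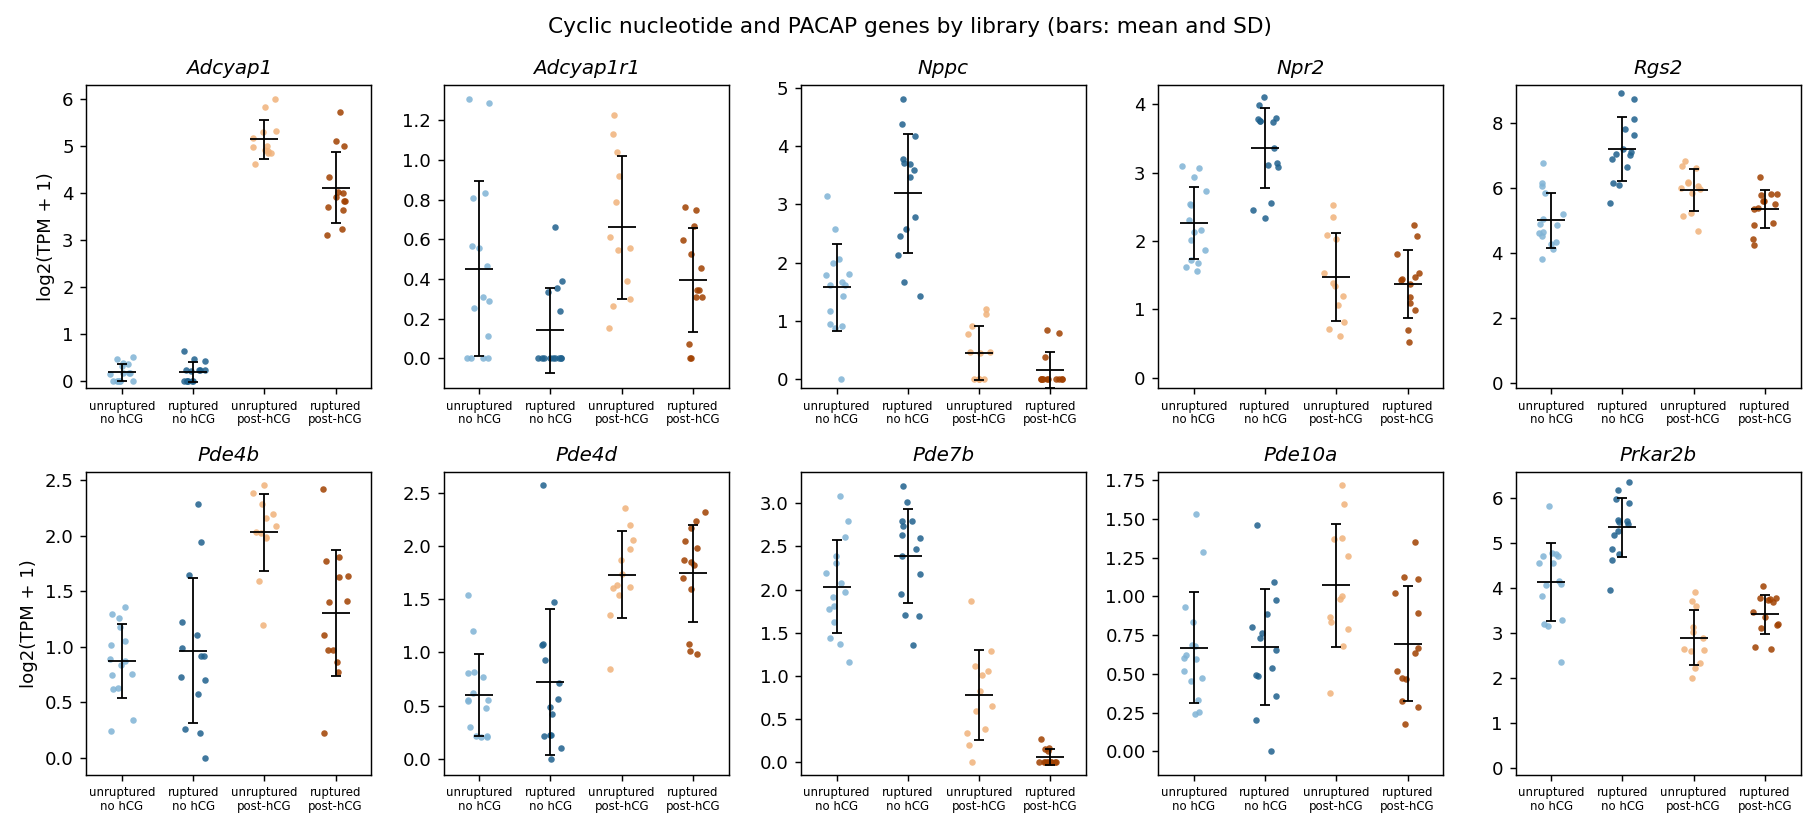
Level of each of the 10 members in every library, as log2(TPM + 1) on the vertical axis of each panel, for the 4 groups of 15, 14, 12 and 13 libraries. Points are libraries and bars the mean and SD. Adcyap1 post-hCG lies above every library without hCG, whereas Nppc and Pde7b on the ruptured side post-hCG lie below every putative ruptured library. The share of all genes that separate in this way is not given.

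Without hCG most granulosa markers tested were higher, and most theca markers tested lower, on the putative ruptured side. The sums below rest largely on 1 gene each. Inha had a median of 9030 TPM in putative ruptured sides, where the granulosa sum had a median of 9190 TPM. Col3a1 had a median of 381 TPM in putative unruptured sides, where the theca sum had a median of 498 TPM. Without hCG the summed level of 7 granulosa markers was 803 to 5410 TPM in putative unruptured and 3210 to 13600 TPM in putative ruptured sides, and 5 of the 6 tested were higher there. The 8 theca markers summed to 30.1 to 2630 TPM and 5.65 to 525 TPM in the same order, and 3 of the 5 tested were lower on the putative ruptured side. Post-hCG, theca markers summed to 72.8 to 1280 TPM on the unruptured side and 2.68 to 50.9 TPM on the ruptured side. Granulosa markers summed to 882 to 1930 TPM and 750 to 1400 TPM in the same order. Of 4 theca markers tested post-hCG, 3 were lower on the ruptured side. Of 3 granulosa markers tested, 1 was higher there and 2 were not called. In the order unruptured, ruptured, immune markers had summed medians of 32.8 and 1.23 TPM without hCG and 14.9 and 0.91 TPM post-hCG. On the unruptured side most of this was Lyz2, at medians of 29.7 and 10.5 TPM without and with hCG. It was the 1 immune marker tested between the sides without hCG, and Ptprc had a median of 0 TPM in every group. Smooth muscle markers had summed medians of 34.7 and 5.43 TPM, then 4.54 and 2.38 TPM. In putative unruptured sides most of this was Acta2 (median 29.1 TPM). Actg2 went the other way post-hCG, at medians of 0.77 and 1.52 TPM. The 4 cumulus expansion markers had summed medians of 5.23 and 10.6 TPM without hCG and 17.3 and 15.2 TPM post-hCG, in that order. Without hCG the 2 tested were higher on the putative ruptured side. These were Has2 (1.92 ± 0.32 SE, edgeR FDR = 6.79e-05) and Tnfaip6 (1.40 ± 0.48 SE, edgeR FDR = 0.041). Post-hCG only Tnfaip6 was tested, and it was not called. The part of these cell types in the members' side differences was not tested. In these bulk samples fewer cells of a type and less RNA per cell cannot be told apart.

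The other natriuretic peptide genes set Nppc and Npr2 in context. Nppa and Nppb, which encode the atrial and B-type peptides, had 1 and 0 counts in all. Npr1, the guanylyl cyclase receptor for those peptides, went the other way from Npr2. It ranged from 1.43 to 11.2 TPM (median 3.24) in putative unruptured sides, against 0.58 to 2.69 TPM (median 1.16) in putative ruptured ones, and post-hCG from 4.84 to 12.7 TPM (median 7.30) and from 5.01 to 24.7 TPM (median 8.88). Its log2FC was -1.23 ± 0.25 (SE, edgeR FDR = 0.000565) between the sides without hCG and 3.10 ± 0.23 (SE, edgeR FDR = 1.36e-13) with hCG on the ruptured side. Of the summed TPM of Npr1 and Npr2, Npr2 held a median of 55.6% in putative unruptured sides and 91.0% in putative ruptured ones, against 21% and 15.5% post-hCG. On the ruptured side this share was 60.2% to 95.5% without hCG and 6.53% to 26.4% post-hCG, with no overlap.

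Of the 8 natriuretic peptide, receptor and protease genes 5 were tested between the sides without hCG, with 2 higher (Nppc and Npr2) and 2 lower (Npr1 and Npr3) on the putative ruptured side, against 8.84% and 8.96% of all genes tested. Npr3, the clearance receptor that removes natriuretic peptides, had a median of 1.25 TPM in putative unruptured sides and 0.385 TPM in putative ruptured ones, and at most 0.42 TPM in any post-hCG library. It was lower on the putative ruptured side (log2FC -1.27 ± 0.35 SE, edgeR FDR = 0.00959) and fell by 3.85 ± 0.45 (SE, edgeR FDR = 1.31e-08) with hCG on the unruptured side. Furin, a protease that cleaves propeptides, rose with hCG by 2.14 ± 0.16 (SE, edgeR FDR = 4.39e-13) on the unruptured side. On the ruptured side its median also went up, from 3.20 to 15.3 TPM. Gucy1a3, a subunit of the nitric oxide-sensitive guanylyl cyclase, fell by 3.32 ± 0.21 (SE, edgeR FDR = 3.61e-15) on the ruptured side. On the unruptured side its median also went down, from 15.2 to 2.27 TPM. Prkg2, a cGMP-dependent kinase, rose on the ruptured side by 3.41 ± 0.21 (SE, edgeR FDR = 2.31e-15), from a median of 0.29 TPM to 4.70 TPM. On the unruptured side its median went from 0.73 to 2.99 TPM.

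**Figure D2:**
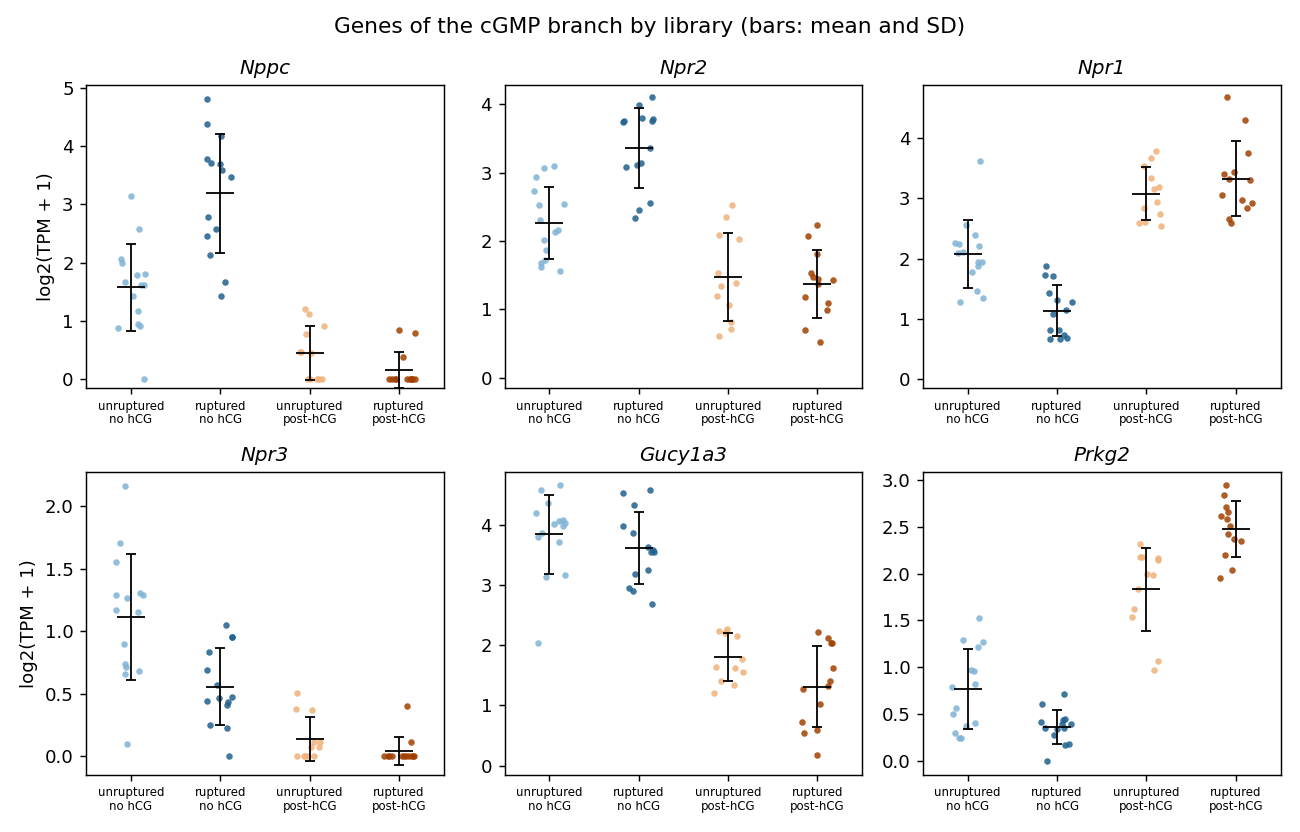
Levels of 6 genes of the cGMP branch by library, as log2(TPM + 1), for the 4 groups. Points are libraries and bars the mean and SD. Nppc, Npr2, Npr3 and Gucy1a3 sit lower post-hCG than without it on both sides, whereas Npr1 and Prkg2 sit higher.

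Rgs2 (chr1:143999338-144004161, minus strand) encodes a regulator that speeds the shut-off of Gq signaling and also restrains adenylyl cyclase. It was the most abundant member by TPM in each group. Without hCG it ranged from 13.2 to 107 TPM (median 28.1, n = 15) in putative unruptured sides, against 45.2 to 481 TPM (median 133, n = 14) in putative ruptured ones. Post-hCG it ranged from 24.8 to 112 TPM (median 64.7, n = 12) in unruptured sides, against 18 to 79.2 TPM (median 44.2, n = 13) in ruptured ones. Without hCG 10 of 14 putative ruptured libraries were above the highest putative unruptured library. Post-hCG the ranges of the sides overlapped broadly, although 12 of 13 ruptured libraries were below the unruptured median in TPM.

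The log2FC of Rgs2 was 2.29 ± 0.33 (SE, edgeR FDR = 1.36e-05) between the sides without hCG and -0.13 ± 0.17 (SE, edgeR FDR = 0.645) post-hCG, with a 95% interval of -0.46 to 0.20 for the latter. Within well row G the side difference without hCG was 2.26 ± 0.47 (SE, edgeR FDR = 0.124). With hCG it fell by 1.86 ± 0.28 (SE, edgeR FDR = 7.29e-07) on the ruptured side. On the unruptured side the value was 0.54 ± 0.27 (SE, edgeR FDR = 0.0885), and limma on TPM called it at 0.94 (limma FDR = 0.00675). The responses of the sides differed, by -2.41 ± 0.40 (SE, edgeR FDR = 7.22e-05). The Rgs2 window, chr1:144004150-144004399 on the minus strand, is shown as the member window with more than 1 CRE half-site, in capitals, 185 and 67 bases before the start.
Rgs2: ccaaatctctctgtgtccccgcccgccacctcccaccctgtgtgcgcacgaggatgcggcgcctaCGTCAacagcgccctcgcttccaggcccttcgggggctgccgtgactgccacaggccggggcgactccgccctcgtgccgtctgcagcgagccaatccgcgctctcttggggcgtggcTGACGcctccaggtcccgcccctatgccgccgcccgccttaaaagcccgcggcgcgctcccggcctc

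Of 18 RGS genes in the tables, 6 were tested between the sides without hCG, and Rgs2 and Rgs4 were the 2 called higher, against 8.84% of all genes tested. Of those tested for hCG, 2 of 6 rose and 2 fell in unruptured sides, and 1 of 5 rose and 2 fell in ruptured sides. Over all genes tested 25.4% rose and 27.7% fell in unruptured sides and 29.7% rose and 30.4% fell in ruptured sides, so the RGS counts for hCG lay near these shares. Rgs4, another Gq regulator, shared the side difference of Rgs2 without hCG, at 2.50 ± 0.46 (SE, edgeR FDR = 0.000229), and had hCG responses of -3.52 ± 0.41 (SE, edgeR FDR = 1.09e-08) in unruptured and -5.16 ± 0.61 (SE, edgeR FDR = 8.32e-09) in ruptured sides. Its median went from 18.2 TPM to 0.73 TPM on the ruptured side. Rgs11 was lower on the ruptured side post-hCG by a log2FC of -1.13 ± 0.19 (SE, edgeR FDR = 4.36e-05).

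Pde4b (chr4:102087543-102607259, plus strand) encodes a cAMP-specific phosphodiesterase. Its level without hCG was 0.18 to 1.56 TPM (median 0.83, n = 15) in putative unruptured sides, against 0 to 3.87 TPM (median 0.89, n = 14) in putative ruptured ones. Post-hCG the level was 1.29 to 4.48 TPM (median 3.17, n = 12) in unruptured sides, against 0.17 to 4.36 TPM (median 1.64, n = 13) in ruptured ones. On the unruptured side 11 of 12 post-hCG libraries were above every library without hCG, whereas on the ruptured side 1 of 13 was. Pde4b rose with hCG by 1.79 ± 0.22 (SE, edgeR FDR = 3.2e-08) on the unruptured side. On the ruptured side it was called by a narrow margin, at 0.79 ± 0.35 (SE, edgeR FDR = 0.0498), and RLE scaling, library totals, DESeq2, no filter and limma did not call it, with FDRs from 0.0509 to 0.253. Post-hCG the sides differed by -0.58 ± 0.22 (SE, edgeR FDR = 0.057), short of the threshold, although limma and scaling by library totals called the difference at -0.72 (limma FDR = 0.00501) and -0.73 (edgeR FDR = 0.0209). The interaction was -1.0 ± 0.43 (SE, edgeR FDR = 0.141).

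Pde4b has 4 annotated windows, of which the one at chr4:102421305-102421554, plus strand, holds the half-site in capitals, 34 bases before that start, and is shown for that reason.
Pde4b: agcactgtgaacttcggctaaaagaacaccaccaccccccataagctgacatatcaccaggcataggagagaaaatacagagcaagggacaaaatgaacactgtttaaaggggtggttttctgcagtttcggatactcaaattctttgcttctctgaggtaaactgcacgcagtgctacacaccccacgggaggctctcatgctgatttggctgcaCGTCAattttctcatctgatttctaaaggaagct

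Pde4d (chr13:108449948-109953461, plus strand), another cAMP-specific enzyme, rose with hCG on both sides. In medium without hCG it spanned 0.15 to 1.90 TPM (median 0.47, n = 15) in putative unruptured sides, against 0 to 4.94 TPM (median 0.44, n = 14) in putative ruptured ones. After hCG it spanned 0.79 to 4.14 TPM (median 2.21, n = 12) and 0.98 to 4.0 TPM (median 2.60, n = 13), unruptured then ruptured. Every post-hCG library was above the median without hCG of its side, although the ranges overlapped: 10 of 12 unruptured libraries and 0 of 13 ruptured libraries were above the highest library without hCG of their side. The log2FC was 2.32 ± 0.27 (SE, edgeR FDR = 1.5e-08) on the unruptured side and 1.96 ± 0.35 (SE, edgeR FDR = 1.63e-05) on the ruptured side. Replicate 4 of the putative ruptured side held 37 of the 87 counts of its group, and without it the value on the ruptured side was 2.58 ± 0.29 (SE, edgeR FDR = 3.91e-09) and the interaction changed sign, from -0.35 ± 0.48 (SE, edgeR FDR = 0.727) to 0.27 ± 0.44 (SE, edgeR FDR = 0.771). Post-hCG the sides differed by 0.20 ± 0.17 (SE, edgeR FDR = 0.457).

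Pde7b (chr10:20398004-20725078, minus strand) encodes a cAMP-specific phosphodiesterase of another family and went down. Without hCG it ranged from 1.23 to 7.48 TPM (median 2.92, n = 15) in putative unruptured sides, against 1.55 to 8.23 TPM (median 4.79, n = 14) in putative ruptured ones. Post-hCG it ranged from 0 to 2.64 TPM (median 0.665, n = 12) on the unruptured side and from 0 to 0.20 TPM on the ruptured side, where 9 of 13 libraries were at 0 and 7 counts were found in all. Every ruptured library post-hCG was below every putative ruptured library, and on the unruptured side 10 of 12 were below the range without hCG. Without hCG the sides differed by 0.45 ± 0.22 (SE, edgeR FDR = 0.169). With hCG Pde7b fell by 2.29 ± 0.32 (SE, edgeR FDR = 4.81e-07) on the unruptured side and by 5.79 ± 0.39 (SE, edgeR FDR = 2.24e-14) on the ruptured side. The responses differed by -3.54 ± 0.64 (SE, edgeR FDR = 0.000218). Post-hCG the gene was under the count filter, and with no filter the sides differed by -3.05 ± 0.58 (SE, edgeR FDR = 0.000181).

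Pde10a (chr17:8525372-8986648, plus strand), encodes an enzyme that breaks down both cAMP and cGMP. Its group medians were 0.52, 0.615, 0.99 and 0.55 TPM on the putative unruptured, putative ruptured, unruptured and ruptured sides, and its libraries ranged from 0 to 2.29 TPM with overlap between all groups. It passed the filter only in the fit of all 4 groups, where the interaction was -0.65 ± 0.40 (SE, edgeR FDR = 0.346). In that fit hCG gave 0.68 ± 0.27 (SE, edgeR FDR = 0.0304) on the unruptured side and 0.03 ± 0.30 (SE, edgeR FDR = 0.939) on the ruptured side. With no filter, hCG on the unruptured side gave 0.66 ± 0.25 (SE, edgeR FDR = 0.0448), and on the ruptured side 0.04 ± 0.32 (SE, edgeR FDR = 0.963).

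Across the 21 phosphodiesterase genes the summed level had overlapping ranges between groups, from 11.9 to 34.7 TPM (median 20.5) on the putative unruptured side, 13 to 47.0 TPM (median 24.4) on the putative ruptured side, 18.5 to 36.9 TPM (median 25.4) on the unruptured side and 15 to 36.4 TPM (median 27.9) on the ruptured side. Its makeup differed. Pde7b held 16.3% ± 6.71 (SD, n = 15) and 19.1% ± 8.21 (SD, n = 14) of it without hCG, and 3.04% ± 2.49 (SD, n = 12) and 0.134% ± 0.218 (SD, n = 13) post-hCG, each time in the order unruptured, ruptured. Pde4d held 2.92% ± 2.34 (SD, n = 15) and 2.8% ± 2.79 (SD, n = 14) without hCG, and 9.18% ± 3.12 (SD, n = 12) and 9.16% ± 3.09 (SD, n = 13) post-hCG. Pde4b held 4.54% ± 2.79 (SD, n = 15) and 4.49% ± 3.49 (SD, n = 14) without hCG, and 12.0% ± 2.93 (SD, n = 12) and 5.91% ± 3.15 (SD, n = 13) post-hCG. The highest share in each group belonged to Pde1a, a calmodulin-activated phosphodiesterase named here after its values were seen, with 31.5% ± 7.04 (SD, n = 15) and 30.6% ± 6.27 (SD, n = 14) without hCG, and 42.2% ± 10.9 (SD, n = 12) and 59.7% ± 6.71 (SD, n = 13) post-hCG. With hCG 4 of 9 tested phosphodiesterase genes rose and 4 fell on the unruptured side, and 4 of 8 rose and 3 fell on the ruptured side, against 25.4% and 27.7%, then 29.7% and 30.4%, of all genes tested. The median log2FC of the tested genes was -0.45 and 0.20, against -0.03 and 0 for all genes tested. Between the sides without hCG edgeR and DESeq2 called 0 of the 6 tested, of which 3 had an unadjusted edgeR p below 0.05. Post-hCG 1 of 6 was called, which was Pde1a at 0.77 ± 0.14 (SE, edgeR FDR = 0.000161). Over all genes tested 8.84% were higher and 8.96% lower on the ruptured side without hCG, and 10% and 11.3% post-hCG.

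**Figure D3:**
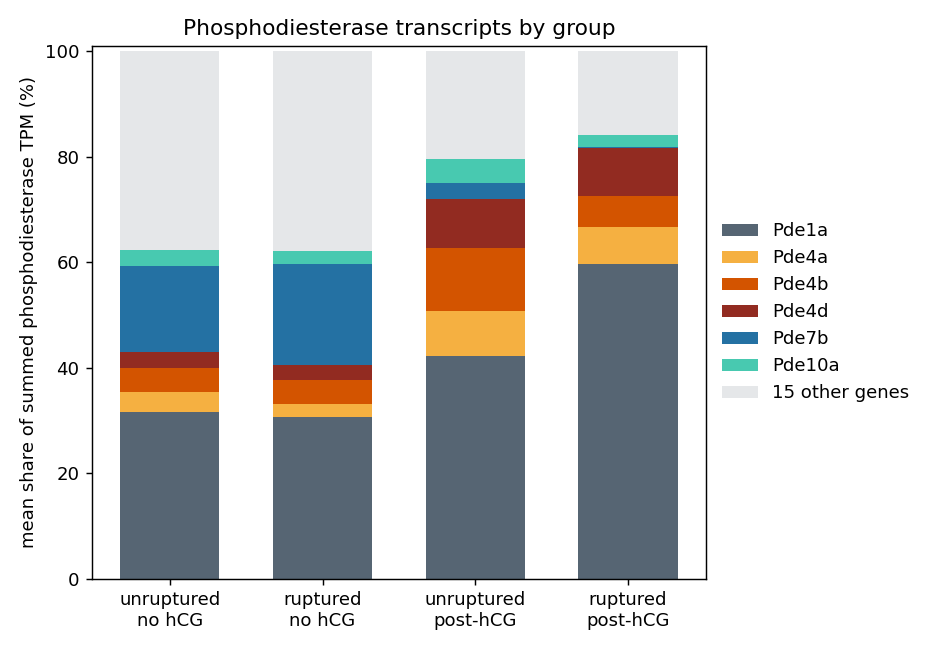
Mean share of the summed TPM of 21 phosphodiesterase genes in each group, in percent, stacked by gene; the SDs of the members' shares stand in the text. Pde7b takes 16.3% and 19.1% without hCG, 3.04% on the unruptured side post-hCG and 0.134% on the ruptured side, whereas Pde4d goes from under 3% to above 9% and Pde1a from 30.6% to 59.7% on the ruptured side and from 31.5% to 42.2% on the unruptured side.

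Prkar2b (chr12:31958476-32061296, minus strand) encodes the RII-beta regulatory subunit of PKA, which binds cAMP and holds the kinase inactive without it. Its level without hCG was 4.13 to 56.0 TPM (median 17.0, n = 15) in putative unruptured sides, against 14.6 to 82.2 TPM (median 43.1, n = 14) in putative ruptured ones. Post-hCG the level was 3.01 to 14.2 TPM (median 5.86, n = 12) in unruptured sides, against 5.25 to 15.6 TPM (median 10.1, n = 13) in ruptured ones. Of the ruptured libraries post-hCG, 12 of 13 lay below every putative ruptured library. The side difference had the same direction in both media, with a log2FC of 1.24 ± 0.28 (SE, edgeR FDR = 0.00162) without hCG and 0.97 ± 0.20 (SE, edgeR FDR = 0.000636) post-hCG, the latter at 0.52 ± 0.20 (SE, limma FDR = 0.0554) on log2(TPM + 1). Within single well rows neither was called, at 0.64 ± 0.60 (SE, edgeR FDR = 0.773) in row G without hCG and 0.42 ± 0.25 (SE, edgeR FDR = 0.355) in row C post-hCG. With hCG it fell by 1.73 ± 0.30 (SE, edgeR FDR = 1.08e-05) on the unruptured side and by 1.97 ± 0.22 (SE, edgeR FDR = 1.84e-09) on the ruptured side, and the interaction was -0.25 ± 0.37 (SE, edgeR FDR = 0.752).

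Among the 4 regulatory subunit genes Prkar2b held a median of 11.5% of the summed TPM in putative unruptured sides and 31.1% in putative ruptured ones, against 4.70% and 9.55% post-hCG. Prkar1a, the most abundant of them and also named after its values were seen, did not pass the test for hCG on either side, with values of -0.09 ± 0.10 (SE, edgeR FDR = 0.481) and 0.06 ± 0.07 (SE, edgeR FDR = 0.515). Over all 9 genes of PKA subunits and inhibitors, 3 of 9 tested rose and 4 fell with hCG on the unruptured side, and 2 of 8 rose and 3 fell on the ruptured side, against the same 25.4% and 27.7%, then 29.7% and 30.4%, of all genes. The median log2FC was -0.29 and -0.22, against -0.03 and 0 for all genes tested.

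**Figure D4:**
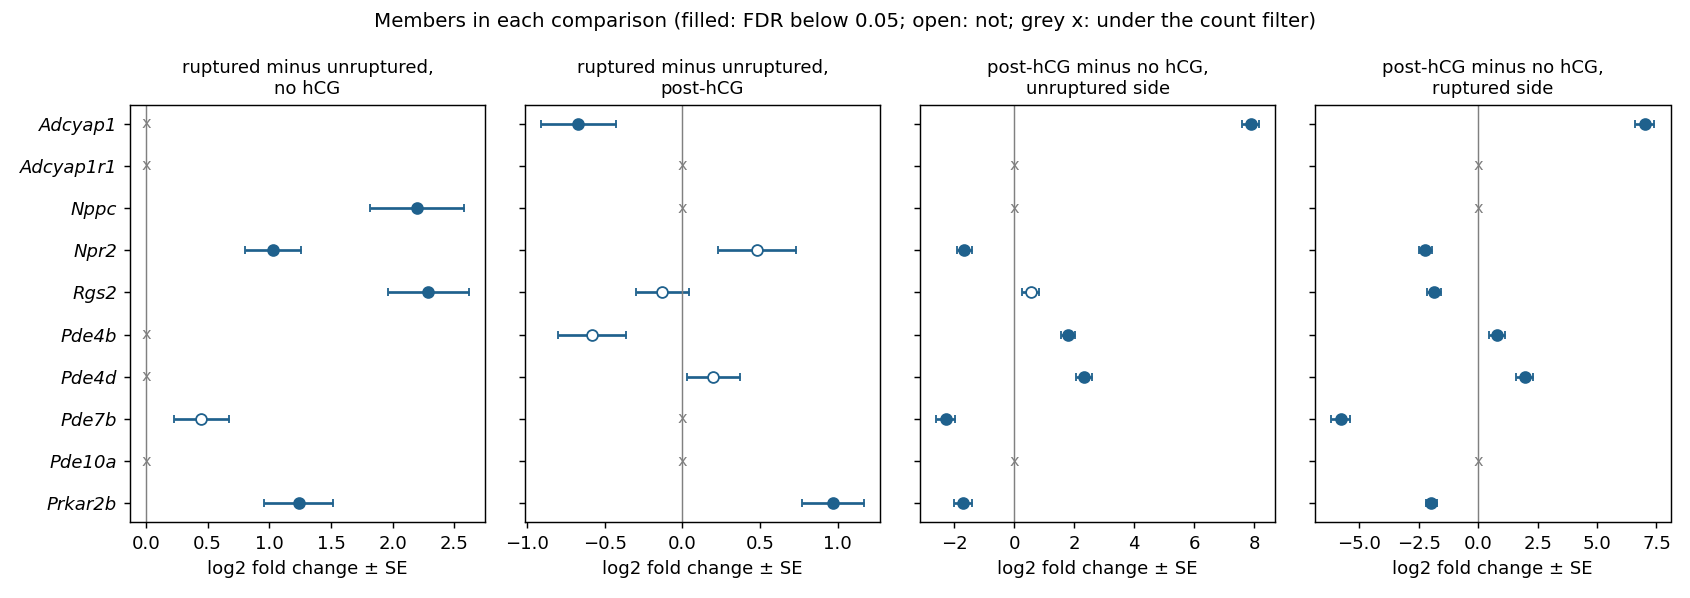
Log2 fold change of each member with its SE in the 4 pairwise comparisons; each panel has its own horizontal scale. Filled points passed an FDR of 0.05, open points did not, and grey crosses mark members under the count filter. Without hCG, Nppc, Npr2, Rgs2 and Prkar2b were higher on the putative ruptured side, by 1.03 to 2.29.

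Counted by comparison, 5 members passed the count filter for the sides without hCG, of which 4 were higher on the putative ruptured side and 0 lower, while over all 9063 genes tested 8.84% were higher and 8.96% lower. Post-hCG 6 were tested, with 1 higher (Prkar2b) and 1 lower (Adcyap1) on the ruptured side, against 10% and 11.3% of all genes. With hCG on the unruptured side 7 were tested, with 3 higher (Adcyap1, Pde4b, Pde4d) and 3 lower (Npr2, Pde7b, Prkar2b), against 25.4% and 27.7% of all genes. On the ruptured side 7 were tested, with the same 3 higher and 4 lower (Npr2, Pde7b, Prkar2b and Rgs2), against 29.7% and 30.4%. In the interaction 9 were tested, and Nppc, Pde7b and Rgs2 had a more negative response on the ruptured side and 0 a more positive one, against 4.65% and 4.25% of all genes. A gene could pass the filter through a single group, as Adcyap1 did, so these counts describe the tables and are not evidence about the set. The comparisons also share libraries with each other.

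**Figure D5:**
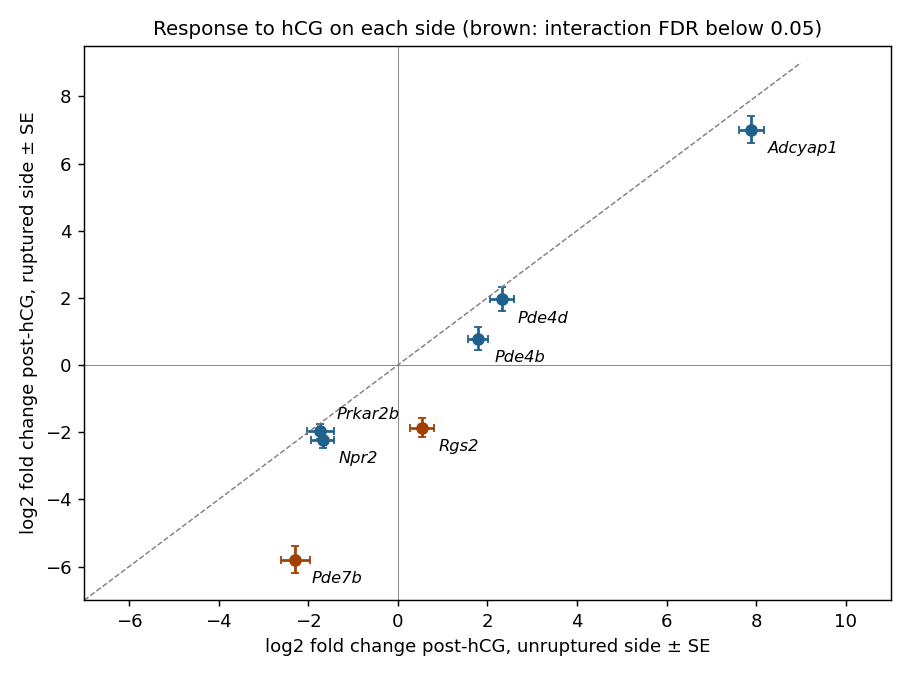
Log2 fold change post-hCG on the unruptured side (horizontal) and the ruptured side (vertical) for the 7 members tested on both, with SEs; the dashed line marks equal responses. Rgs2 and Pde7b, in brown, passed the interaction test, and Nppc, which also did, was under the count filter in these comparisons and is not drawn.

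The wider pathway held 105 further genes in the tables, from hormone receptors to CREB coactivators. Of these, 45 were tested between the sides without hCG, with 2 higher and 7 lower on the putative ruptured side, and 45 post-hCG, with 9 higher and 5 lower. With hCG 17 of 51 rose and 19 fell on the unruptured side, and 13 of 44 rose and 15 fell on the ruptured side. The shares of all genes given above for each comparison are the background for these counts. Lhcgr, the receptor for LH and hCG, rose on both sides. It went from a median of 3.81 TPM to 147 TPM on the unruptured side, a log2FC of 3.90 ± 0.53 (SE, edgeR FDR = 2.34e-07). On the ruptured side it went from 10.7 TPM to 295 TPM, a log2FC of 4.20 ± 0.47 (SE, edgeR FDR = 2.65e-09). Lhcgr was not called in the interaction. Post-hCG it was higher on the ruptured than on the unruptured side by 1.28 ± 0.26 (SE, edgeR FDR = 0.00041). Fshr, the FSH receptor, was higher on the putative ruptured side by 2.12 ± 0.36 (SE, edgeR FDR = 8.06e-05). In the interaction 52 were tested, with 6 more positive and 4 more negative on the ruptured side, against 4.25% and 4.65% of all genes tested. The former were led by Prkg2 (1.96 ± 0.31 SE, edgeR FDR = 2.08e-05) and Npr1 (1.70 ± 0.31 SE, edgeR FDR = 0.000231). The latter were led by the phosphodiesterase Pde3b (-1.84 ± 0.47 SE, edgeR FDR = 0.00874) and Fshr (-1.49 ± 0.45 SE, edgeR FDR = 0.0258). Fshr did not fall on the ruptured side, where hCG gave 0.11 ± 0.26 (SE, edgeR FDR = 0.72). It rose on the unruptured side, by 1.60 ± 0.36 (SE, edgeR FDR = 0.000357). Of 9 G protein alpha subunits 7 were tested, of which 2 rose and 5 fell with hCG in unruptured sides. In ruptured sides 2 rose and 4 fell. Over all genes tested 25.4% rose and 27.7% fell in unruptured sides, and 29.7% rose and 30.4% fell in ruptured sides. Gnao1, an alpha subunit of the inhibitory G protein class, rose by 3.66 ± 0.19 (SE, edgeR FDR = 1e-16) and 4.99 ± 0.19 (SE, edgeR FDR = 1.35e-20) on the unruptured and ruptured sides, and Gnai1, of the same class, fell by 2.54 ± 0.17 (SE, edgeR FDR = 2.6e-14) and 2.8 ± 0.30 (SE, edgeR FDR = 8.69e-10).

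Patterns over the 4 groups were also compared with the 10794 genes that reached a mean of 1 TPM in a group, by the root mean square distance between centred group means of log2(TPM + 1). Nppc was nearest to Inha (0.096) and Bmp3 (0.109), Npr2 to RP23-192A6.2 (0.018) and Mycn (0.047), and Prkar2b to Dock4 (0.074) and Zfp950 (0.129). Pde4b was nearest to Gckr (0.036) and Bin1 (0.051), Pde4d to Snap25 (0.017) and Lypd6 (0.028), Pde7b to Prss23 (0.080) and Cd200 (0.089), and Pde10a to RP24-471H15.6 (0.011) and Srp68 (0.017). Xpnpep2 (0.329) and Fkbp5 (0.384) came closest to Adcyap1, and RP24-423B3.2 (0.280) and Apoa1 (0.313) to Rgs2. A distance grows with the size of a gene's differences, so these values are not comparable between members.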

How the data were processed

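RNA-seq of single follicle sides was analysed in 54 libraries of 4 groups. The authors mapped reads to GRCm38 (HISAT2), applied the batch correction ComBat-seq to counts and then derived TPM. The first table the authors deposited holds estimated counts, not always whole numbers, for each gene in each library. The other deposited table holds TPM, scaled by transcript length and library. The counting program, the batches, and whether the counts precede the batch correction are not given in the sources used here. Counts were rounded, reduced to genes that pass filterByExpr in edgeR 4.0.16 (count of 10, total of 15) and fitted with TMM factors and its quasi-likelihood F-test (Benjamini-Hochberg adjustment over all genes tested), each of the 4 pairwise comparisons on its own groups and the interaction on all 4. The SE is the absolute log2FC divided by the square root of F. Scripts were tested on simulated data. TPM analyses used limma 3.58.1 on log2(TPM + 1) where the mean reached 1 TPM.

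Alternatives were RLE size factors, library totals only, DESeq2 1.42.0, no filter, limma, the replicate number as a factor, all 4 groups in 1 fit, and leaving out any library with over 0.25 of a member's counts in its group. Fits within 1 well row were chosen after seeing the data. The members and gene lists were chosen with earlier results of these data known. Other genes were named by a rule: from the pathway lists, up to 3 per comparison and direction with the largest log2FC past the threshold, and, in the higher group, a mean of 1 TPM or more with counts in a share of 0.5 or more of its libraries. The 2 genes of nearest pattern were named for each member that reached 1 TPM. Positions came from GENCODE vM21 on GRCm38. Libraries of a group differed beyond sampling noise (chi-square per gene of at least 4.02 for the closest pair), so none was merged. The kit does not mark strand, and genes not analysed here overlap Npr2 (an antisense gene), Pde4d, Pde7b and Pde10a, so reads of these cannot be told apart from the members' own by strand.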

Additional observations from a re-analysis of the deposited data

Results flagged for a closer look

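The hCG responses of 3 members differed between the sides by a test of the difference itself, the interaction of side and medium in edgeR. For Rgs2 the response on the ruptured side minus that on the unruptured side was a log2FC of -2.41 ± 0.40 (SE, edgeR FDR = 7.22e-05), where the group medians were 28.1 and 64.7 TPM without and with hCG on the unruptured side and 133 and 44.2 TPM on the ruptured side. For Pde7b it was -3.54 ± 0.64 (SE, edgeR FDR = 0.000218), with 69 and 7 summed counts left post-hCG on the unruptured and ruptured sides. For Nppc it was -3.40 ± 1.06 (SE, edgeR FDR = 0.0314), with 13 and 5 summed counts post-hCG; with no filter the FDR was 0.0508, and without replicate 5 of the ruptured side, which held 2 of the 5 counts, the value was -3.85 (edgeR FDR = 0.0227). The group sizes of 12 to 15 libraries are outside the range in which single libraries were examined for their gap to the rest.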

How the results depend on the processing

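Of 245 values of members recomputed under the alternatives, 223 kept their direction and their side of the threshold, 12 lost the call, 8 gained it and 2 changed sign. The sign changes were Npr2 between the sides post-hCG, at -0.10 with limma against 0.48, and the interaction of Pde4d, which ran from -0.64 to 0.27 when single libraries were left out, against -0.35; neither was called in any of these fits. With limma 1054 genes were called between the sides without hCG against 1613, and 6 members against 3 in the interaction; limma used other genes and another scale, and the cause was not tested. Same-numbered libraries did not deviate together: 1 or 2 of the 12 to 14 pairs per comparison had a correlation over 0.1, so the numbers were not taken to pair samples. With the replicate block Pde4b post-hCG (-0.77, edgeR FDR = 0.00545) and Rgs2 with hCG on the unruptured side (0.86, edgeR FDR = 0.0102) were also called, no member lost a call, and the genes called between the sides without hCG numbered 1414. With few counts, differences of Adcyap1r1, Pde10a, Nppc post-hCG and Pde7b post-hCG smaller than their spread were not detectable at this depth.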

Other observations

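Replicate 4 of the putative ruptured side had the highest level of its group for 3 phosphodiesterases, with 4.94 TPM of Pde4d, 3.87 TPM of Pde4b and 1.75 TPM of Pde10a, while its Adcyap1 level was 0.17 TPM.

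Of 6 tested genes of the CREB family and its coactivators, which act downstream of PKA, 2 fell with hCG in unruptured sides and 3 in ruptured sides, where 27.7% and 30.4% of all genes tested fell. Between the sides edgeR and DESeq2 called 0 of the 6 in either medium. Without hCG and post-hCG 1 and 2 had an unadjusted edgeR p below 0.05, and limma called 1 in each. Over all genes tested, edgeR called 8.84% higher and 8.96% lower on the ruptured side without hCG, and 10% and 11.3% post-hCG. Of 8 tested A-kinase anchoring proteins, which tether PKA, 2 rose and 2 fell with hCG in unruptured sides, and of 7 tested in ruptured sides 1 rose and 2 fell. Over all genes tested 25.4% rose and 27.7% fell in unruptured sides and 29.7% rose and 30.4% fell in ruptured sides, so the counts of anchoring proteins lay near these shares. The median log2FC of the tested CREB genes was -0.12 and -0.23 with hCG, unruptured then ruptured, against -0.03 and 0 for all genes tested.

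The ratio of count to TPM, relative to the library's median over 3825 well-covered genes, reflects the transcript length that the authors' scaling assigned to a gene. It was computed where a library had at least 5 counts of the gene. For Adcyap1 it was 0.929 to 0.965 over the post-hCG libraries. For Npr2 it ran from 0.44 to 1.71 over all libraries, for Pde7b from 0.47 to 1.84 and for Pde10a from 0.4 to 3.41, over the libraries with enough counts.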
